A study of Homo sapiens with 4 samples.

Results

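The mRNA of 10 genes of the cadherin-catenin complex was followed in MHCC-97H cells, an established HCC line of high metastatic potential. The genes were 7 cadherins (CDH1, CDH2, CDH3, CDH5, CDH6, CDH11 and CDH17) and 3 catenins (CTNNA1, CTNNB1 and CTNND1). They were taken by gene symbol and Ensembl identifier from the 58735 genes of the deposited tables. All 10 were found, and 9 had enough reads in at least 1 library to be tested. CDH11 had 0 reads in all 4 libraries and was not tested.

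Cadherins are calcium-dependent adhesion proteins that bind their like on the neighbouring cell. The cytoplasmic tail of a classical cadherin binds β-catenin (CTNNB1) and p120-catenin (CTNND1), and α-catenin (CTNNA1) links β-catenin to actin. CTNNB1 also acts in the nucleus with TCF/LEF factors in Wnt signaling, and CTNND1 keeps cadherins at the cell surface. Loss of E-cadherin (CDH1) with gain of N-cadherin (CDH2) is the classical picture of epithelial-mesenchymal transition, and VE-cadherin (CDH5), the cadherin of endothelial junctions, is a marker of vasculogenic mimicry (VM) when tumor cells express it. CDH17, the liver-intestine cadherin, is grouped with the others here although it has a short tail without the catenin-binding site.

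Each of the 4 libraries came from wild-type MHCC-97H cells after 24 h, and each condition had 1 library. One culture was given PBS. The others were given 2 μg of migrasomes (Migs), vesicles left behind on the retraction fibers of moving cells, from MHCC-97H cells in normoxia (normo-Migs), from these cells kept hypoxic (hypo-Migs), or from CD147-knockout MHCC-97H cells in hypoxia (CD147KO-Migs). The knockout was in the cells that released the Migs, not in the sequenced cells, so the reads of BSG, which encodes CD147, could not check the labels. BSG reached 921 to 985 reads per 1000000 reads on genes (CPM) in the Mig libraries and 1421 CPM with PBS.

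The library labelled PBS stood apart from the Mig libraries, which bears on every comparison with it. The libraries held 33882496 to 40285223 reads on genes, and mitochondrial genes took 2.69% of them with PBS and 5.00% to 5.16% with Migs. KRT19, a biliary keratin, had 11287 reads with PBS and 32 to 75 with Migs. FGB, a fibrinogen chain made by hepatocytes, had 0 reads with PBS and 561 to 832 with Migs. Of the 10 hepatocyte markers 4 were tested, and against PBS FGB was called higher and SERPINA1 lower (25 reads with PBS and 2 to 10 with Migs) in all 3 comparisons, while HNF4A (134 and 141 to 246) was not called. The summed level of 9 fibroblast markers was 24.3 CPM with PBS and 206 to 221 CPM with Migs, although COL1A2 had 0 to 2 reads and PDGFRA 0 to 1. Of these markers 7 were tested, and 5 were called higher and 1 lower against PBS in all 3 comparisons. Over all genes tested, 16.5% to 17.4% were called higher and 10.7% to 10.9% lower. The lower one was POSTN (10 reads with PBS and 0 with Migs), and COL3A1 had 27 reads with PBS and 14 to 27 with Migs. FGB entered the test through its reads with Migs alone and POSTN through its 10 reads with PBS alone, so the filter favored these calls. The epithelial keratins KRT8 and KRT18 were high in every library, at 330 FPKM or more, where FPKM is reads per length of gene and size of library. Of the 6 epithelial markers, EPCAM was called higher against PBS with all 3 kinds of Migs (578 reads with PBS and 1451 to 1834 with Migs), KRT19 and CLDN7 (1684 and 517 to 658) were called lower, and CLDN4 (215 and 116 to 198), KRT8 and KRT18 were not called. The hepatocyte genes ALB, APOB, TTR and AFP had 0 reads in all 4 libraries, and the leukocyte markers summed to 0.485 to 0.781 CPM. With 1 library per condition the treatment and the library cannot be told apart, and the part of these markers in the results below was not tested.

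For each pair of libraries, reads were tested by the two-sided exact binomial test of edgeR, and p-values were adjusted (Benjamini-Hochberg) over all 19895 tested genes (binomial adjusted p below). This test compares 2 libraries and not the conditions, and its p-values and all intervals cover counting error only. A gene was called when the binomial adjusted p was 0.05 or less and the log2 fold change was 1 or more in size. Log2 fold changes are the first library minus the second, with a prior count of 2 reads, and bracketed ranges are exact 95% intervals of the log2 ratio of reads.

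Of the 9 members tested, 0 were called between hypo-Migs and normo-Migs, where 4.9% of all genes tested were called. There 2 members had a binomial p under 0.05 before adjustment, and DESeq2 called 0. Between hypo-Migs and CD147KO-Migs 1 of 9 was called, against 5.04% of all genes, and this was CDH6 with 3 and 13 reads. The 13 reads with CD147KO-Migs were its only count to reach the 10 reads needed for testing, so the filter itself favored this call. Between normo-Migs and CD147KO-Migs 0 of 9 were called, against 4.91% of all genes, with 3 under an unadjusted p of 0.05 and 0 called by DESeq2. Against PBS, 6 of 9 members were called with normo-Migs, beside 27.2% of all genes, 3 of them higher (16.5% of all genes) and 3 lower (10.7%). With hypo-Migs 4 were called (28.3% of all genes), 2 higher (17.4%) and 2 lower (10.9%). With CD147KO-Migs 5 were called (27.5%), 3 higher (16.6%) and 2 lower (10.9%). All of these were cadherins. The 3 comparisons share the library labelled PBS and are not independent, and CDH1, CDH6 and CDH17 entered the test through their reads in the Mig libraries alone. DESeq2, with its dispersion taken over the 4 libraries, called 0 members in every pair. That dispersion takes in the differences between the conditions themselves, so this 0 cannot decide whether the calls hold.

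**Figure D1:**
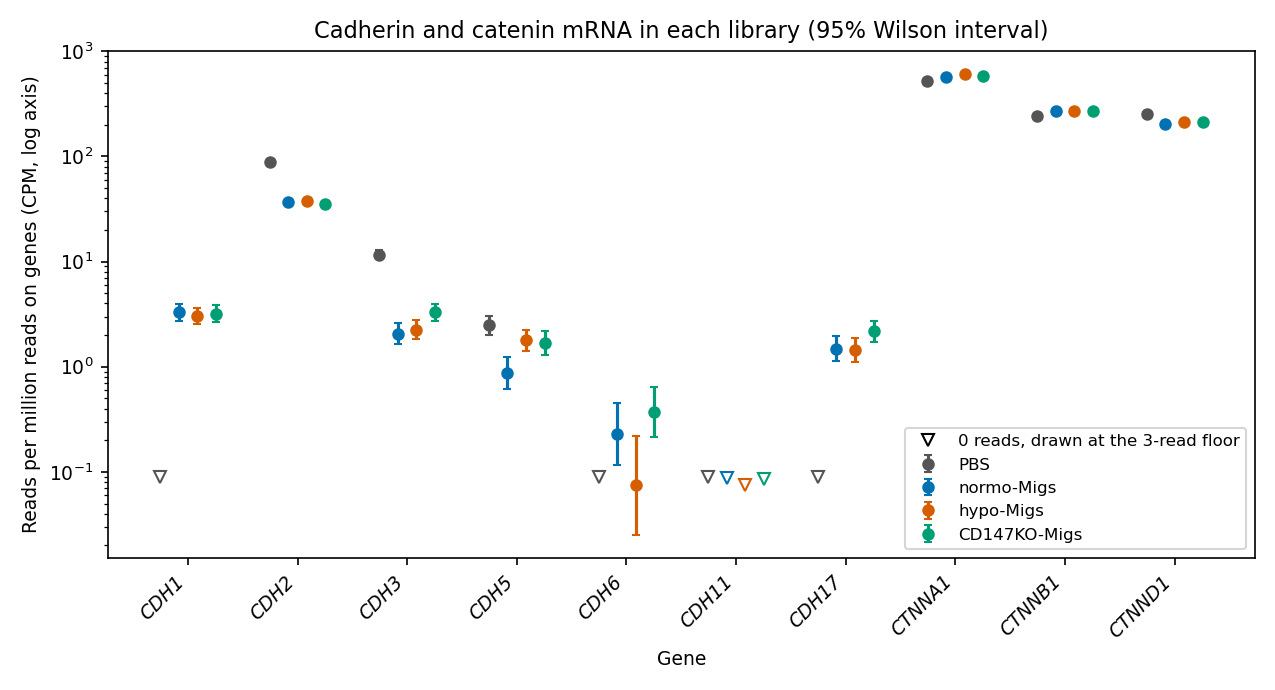
Level of each member in each library, in CPM on a log axis. Points are single libraries, bars are 95% Wilson intervals of the counting error, and open triangles mark 0 reads, drawn at the level of 3 reads. The catenins and CDH2 lie above 30 CPM in every library, whereas CDH1, CDH6 and CDH17 have 0 reads with PBS and CDH11 has 0 in all 4 libraries.

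Among the type I cadherins, CDH2 was the most abundant in every library. CDH2 lies on chromosome 18 (hg38, 27950966 to 28177446, minus strand; 16 exons, all coding) and encodes N-cadherin of neural, mesenchymal and many HCC cells. Its promoter windows are shown because CDH2 had the highest level per length of the 7 cadherins in every library and was lower in all 3 Mig libraries than with PBS. Both windows were read from RefSeq (GRCh38.p14) in the 5′ to 3′ direction of the gene, from 250 bases before a start site to 50 after it. They were searched for the E-box CANNTG, a broad motif that includes the sites of SNAI, ZEB and TWIST factors. Its forms CAGGTG and CACCTG, preferred by SNAI and ZEB factors, were also counted. CANNTG reads the same on both strands, and its letters are in capitals.
CDH2, chr18:28177081-28177380, minus strand: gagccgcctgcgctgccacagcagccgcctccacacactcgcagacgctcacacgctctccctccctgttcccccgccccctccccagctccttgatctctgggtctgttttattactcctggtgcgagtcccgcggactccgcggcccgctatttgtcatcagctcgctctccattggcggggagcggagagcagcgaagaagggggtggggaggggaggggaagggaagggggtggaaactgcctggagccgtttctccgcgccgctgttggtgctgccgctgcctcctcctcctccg
CDH2, chr18:28036592-28036891, minus strand: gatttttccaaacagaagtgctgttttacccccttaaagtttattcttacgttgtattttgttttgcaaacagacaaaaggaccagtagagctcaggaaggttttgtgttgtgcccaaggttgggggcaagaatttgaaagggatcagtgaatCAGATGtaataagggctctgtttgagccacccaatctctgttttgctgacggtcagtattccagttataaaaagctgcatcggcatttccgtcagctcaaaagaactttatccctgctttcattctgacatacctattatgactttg
The upstream window held 0 matches to CANNTG and had a GC content of 67.0%. The downstream one held 1, CAGATG, which began 97 bases before the start, and had a GC content of 40.7%. Of the 35116 promoters in the table, 68.7% held at least 1 match to CANNTG, and 20.6% held CAGGTG or CACCTG. The table also held CTNNA1 and CTNNB1, so 3 of the 10 members were matched. The CTNNB1 window held 0 matches, and of the 4 CTNNA1 windows 2 held 0 matches and the other two, which overlap, held the same 2 (CAGCTG and CAGATG). CDH1, CDH3, CDH5, CDH6, CDH11, CDH17 and CTNND1 had no entry. A match describes the letters only, and binding was not measured.

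CDH2 had 2984 reads with PBS, 1274 after normo-Migs, 1532 after hypo-Migs and 1229 after CD147KO-Migs. Per length this was 17.4, 7.49, 7.64 and 7.02 FPKM. The library labelled PBS was therefore the high one, and the Mig libraries lay close to each other. CDH2 fell by 1.21 on the log2 scale with normo-Migs against PBS (-1.31 to -1.11, binomial adjusted p = 1.46e-149), by 1.18 with hypo-Migs (-1.27 to -1.09, binomial adjusted p = 3.34e-157) and by 1.30 with CD147KO-Migs (-1.40 to -1.20, binomial adjusted p = 4.58e-170). Between the Mig libraries, hypo-Migs gave a log2 fold change of 0.03 against normo-Migs (-0.08 to 0.14, binomial adjusted p = 0.762) and of 0.12 against CD147KO-Migs (0.01 to 0.23, binomial adjusted p = 0.0911). In a bulk library, fewer cells expressing a gene and less RNA per cell cannot be told apart.

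CDH1, on chromosome 16 (68737225 to 68835548, plus strand, 17 exons), encodes E-cadherin, the main cadherin of epithelia and of hepatocytes. It had 0 reads with PBS, 114 after normo-Migs, 123 after hypo-Migs and 112 after CD147KO-Migs. With Migs this was 0.492 to 0.537 FPKM, a low level in each library. The 0 with PBS allows up to 3 reads, or 0.0885 CPM. On that floor, CDH1 was at least 38.5-fold higher with normo-Migs than with PBS (binomial adjusted p = 1.31e-34), at least 35.3-fold higher with hypo-Migs (binomial adjusted p = 4.15e-33) and at least 36.8-fold higher with CD147KO-Migs (binomial adjusted p = 2.79e-33). The Mig libraries did not differ detectably: hypo-Migs gave a log2 fold change of -0.12 against normo-Migs (-0.51 to 0.25, binomial adjusted p = 0.697) and of -0.06 against CD147KO-Migs (-0.44 to 0.32, binomial adjusted p = 0.866). A difference within these intervals was not detectable at this depth.

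In the sum of CDH1 and CDH2 reads, CDH1 took 0% with PBS, which allows up to 0.124% (exact 95% limit). It took 8.21% with normo-Migs (6.82% to 9.78%), 7.43% with hypo-Migs (6.21% to 8.80%) and 8.35% with CD147KO-Migs (6.93% to 9.96%). The intervals of the Mig libraries overlapped each other and not that of PBS. CDH2 still exceeded CDH1 by 13.7 to 15.5 times per length (ratio of FPKM) in the Mig libraries.

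CDH3, or P-cadherin, is a cadherin of basal epithelia and placenta. It lies on the same strand of chromosome 16 (68636189 to 68722616), with 14608 bases between its end and the start of CDH1 and 0 genes wholly between them. CDH3 had 392 reads with PBS, 71 after normo-Migs, 91 after hypo-Migs and 115 after CD147KO-Migs. These neighbours thus differed from PBS in opposite directions in all 3 Mig libraries. CDH3 fell by 2.42 on the log2 scale with normo-Migs (-2.83 to -2.08, binomial adjusted p = 3.42e-53), by 2.30 with hypo-Migs (-2.67 to -1.99, binomial adjusted p = 3.06e-55) and by 1.77 with CD147KO-Migs (-2.10 to -1.49, binomial adjusted p = 1.16e-36). Within the Mig libraries CDH3 was highest with CD147KO-Migs, and its log2 fold change was -0.64 for normo-Migs against CD147KO-Migs (-1.10 to -0.22, binomial adjusted p = 0.0149) and -0.52 for hypo-Migs against CD147KO-Migs (-0.95 to -0.13, binomial adjusted p = 0.0408). Both were under the fold criterion, and with reads halved the binomial adjusted p was 0.218 and 0.287.

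**Figure D2:**
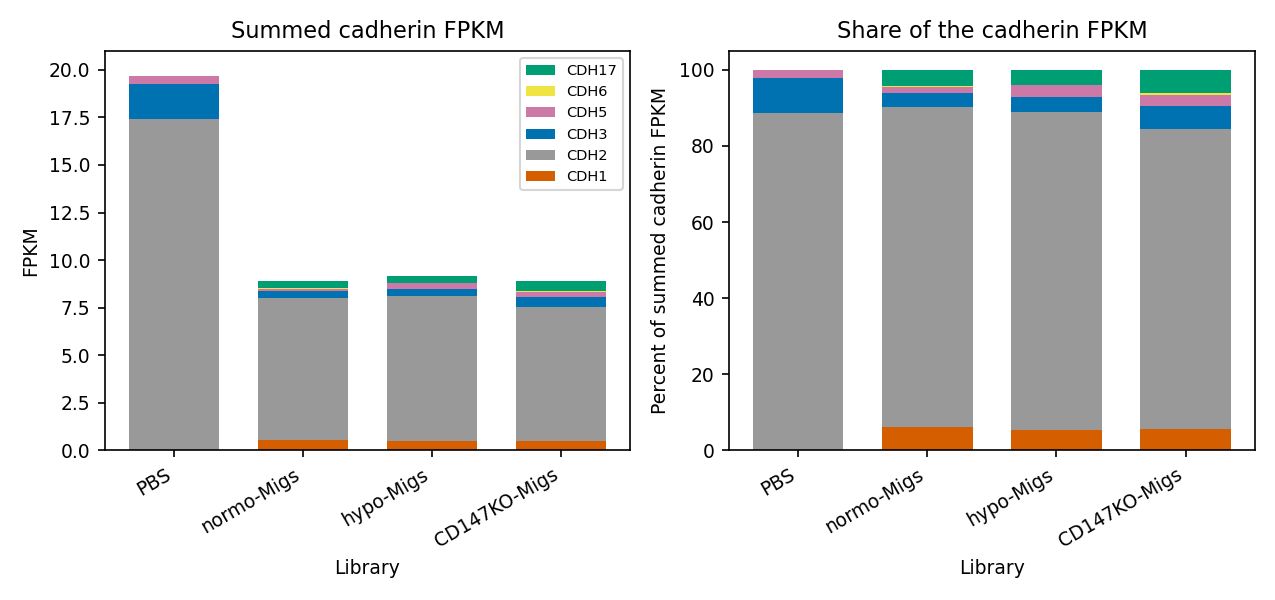
Summed FPKM of the 7 cadherins (left) and the share of each in that sum (right), as stacked bars with 1 library per bar and no error bars. The sum is 19.6 FPKM with PBS and 8.90 to 9.16 with Migs, and CDH2 takes 88.7% with PBS and 78.8% to 84.1% with Migs.

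Per length, CDH2 made up 88.7% of the summed FPKM of the 7 cadherins with PBS, 84.1% after normo-Migs, 83.4% after hypo-Migs and 78.8% after CD147KO-Migs. CDH3 came next with PBS, at 9.25%. With Migs the remaining share was spread over CDH1 (5.37% to 6.03%), CDH17 (4.01% to 6.18%), CDH3 (3.72% to 5.85%) and CDH5 (1.61% to 3.19%). Among CDH1, CDH3 and CDH17, CDH1 had the highest FPKM with normo-Migs and hypo-Migs and CDH17 with CD147KO-Migs. CDH5 was below them and CDH2 above them in each Mig library. With hypo-Migs the counting intervals of CDH5 (1.42 to 2.25 CPM) and CDH3 (1.84 to 2.77 CPM) overlapped.

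CDH5 is the type II cadherin the study follows as a VM marker. It lies on chromosome 16 (66366622 to 66404786, plus strand, 13 exons of which 11 are coding). CDH5 had 84 reads with PBS, 30 after normo-Migs, 72 after hypo-Migs and 59 after CD147KO-Migs, or 0.399, 0.144, 0.292 and 0.274 FPKM. The library with normo-Migs was the low one, and PBS was the highest. Against normo-Migs, CDH5 had a log2 fold change of 0.98 with hypo-Migs (0.39 to 1.69, binomial adjusted p = 0.00688), so it met the criterion for p and narrowly missed that for the fold. With a prior count of 0.25 the value was 1.02 and CDH5 was called, and with reads halved the binomial adjusted p was 0.166. Hypo-Migs and CD147KO-Migs were not separated for this gene, at a log2 fold change of 0.09 (-0.43 to 0.61, binomial adjusted p = 0.855). Normo-Migs against CD147KO-Migs gave -0.89 (-1.62 to -0.28, binomial adjusted p = 0.0208), again under the fold criterion.

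Against PBS, CDH5 fell by 1.41 on the log2 scale with normo-Migs (-2.12 to -0.85, binomial adjusted p = 1.05e-06). Hypo-Migs gave -0.43 (-0.91 to 0.03, binomial adjusted p = 0.087) and CD147KO-Migs -0.52 (-1.04 to -0.03, binomial adjusted p = 0.0432), and neither was called. The 11 other endothelial markers summed to 8.53 CPM with PBS, 7.09 after normo-Migs, 7.22 after hypo-Migs and 6.39 after CD147KO-Migs. Of these 5 were tested. Against PBS, 2 were called higher and 2 lower with normo-Migs, and 1 and 2 with hypo-Migs and with CD147KO-Migs. Over all genes tested, 16.5% to 17.4% were called higher and 10.7% to 10.9% lower. FLT1 had 0 reads in all 4 libraries and KDR 0 to 2, both being VEGF receptors of endothelium. PECAM1, an adhesion molecule of endothelium and blood cells, had 16 reads with PBS and 118 to 146 with Migs, and ESAM, another endothelial adhesion molecule, had 246 with PBS and 81 to 124 with Migs. Between Mig libraries, ROBO4 was called higher with normo-Migs (14 reads) than with hypo-Migs (3) and CD147KO-Migs (1). CLDN5 was called higher with hypo-Migs (15 reads) than with CD147KO-Migs (2). Each reached the 10 reads needed for testing only where it was high, so the filter favored these calls. Both were named after their values were seen.

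CDH6 and CDH11, also of type II, were at or near the limit of detection. CDH6, on chromosome 5 (31193750 to 31329146, plus strand), is a cadherin of fetal kidney and of several carcinomas. It had 0 reads with PBS, 8 after normo-Migs, 3 after hypo-Migs and 13 after CD147KO-Migs. CDH6 was at least 2.70-fold higher with normo-Migs than with PBS (binomial adjusted p = 0.00611) and at least 4.27-fold higher with CD147KO-Migs (binomial adjusted p = 0.000456). With hypo-Migs it was at the floor of 3 reads. Between hypo-Migs and CD147KO-Migs, CDH6 had a log2 fold change of -1.71 (-4.76 to -0.45, binomial adjusted p = 0.041), and between hypo-Migs and normo-Migs one of -1.16 (-4.20 to 0.41, binomial adjusted p = 0.272). The call against CD147KO-Migs rested on those 3 and 13 reads and was lost in 8 alternatives, with a binomial adjusted p of 0.352 once reads were halved. CDH6 entered the test through its 13 reads with CD147KO-Migs alone. CDH11, the cadherin of osteoblasts and stromal fibroblasts on chromosome 16 (64943753 to 65126112, minus strand), had 0 reads in every library, which allows up to 0.0745 to 0.0885 CPM.

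CDH17, on chromosome 8 with 18 exons, had 0 reads with PBS, 51 after normo-Migs, 58 after hypo-Migs and 76 after CD147KO-Migs, or 0, 0.380, 0.367 and 0.551 FPKM. As for CDH1, reads were found in the Mig libraries alone. CDH17 was at least 17.2-fold higher with normo-Migs than with PBS (binomial adjusted p = 1.11e-15), at least 16.6-fold higher with hypo-Migs (binomial adjusted p = 1.05e-15) and at least 25.0-fold higher with CD147KO-Migs (binomial adjusted p = 1.27e-22). Among the Mig libraries it was highest with CD147KO-Migs, but the log2 fold changes of -0.57 for hypo-Migs (-1.11 to -0.07, binomial adjusted p = 0.0688) and -0.52 for normo-Migs (-1.08 to -0.01, binomial adjusted p = 0.123) against it did not pass.

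The 3 catenins were the most abundant members and varied least. CTNNA1, on chromosome 5 (138610967 to 138935034, plus strand), had 17610 reads with PBS, 19686 after normo-Migs, 24342 after hypo-Migs and 20394 after CD147KO-Migs, or 57.7, 64.9, 68.1 and 65.3 FPKM. CTNNB1, on chromosome 3 (41194741 to 41260096, plus strand), had 8183, 9287, 10908 and 9434 reads in the same order, or 19.8, 22.7, 22.6 and 22.4 FPKM. CTNND1, on chromosome 11 (57753243 to 57819546, plus strand), had 8611, 7109, 8632 and 7515 reads, or 28.3, 23.5, 24.2 and 24.2 FPKM. CTNNA1 was thus the highest per length in each library, and CTNND1 exceeded CTNNB1 in each, by less with Migs than with PBS. FPKM divides by the summed exons of each gene, 11927 bases for CTNNB1 and 8798 for CTNND1. By reads, CTNNB1 exceeded CTNND1 in each Mig library and not with PBS, so their order depends on this length.

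The binomial test used a chi-square form for pairs with over 10000 reads in all, as for the catenins. With hypo-Migs, CTNNA1 differed from normo-Migs by a log2 fold change of 0.07 (0.04 to 0.10, binomial adjusted p = 1.14e-05) and from CD147KO-Migs by 0.06 (0.03 to 0.09, binomial adjusted p = 0.00032). These reads were numerous enough for such small differences to pass the criterion for p, and the fold criterion was far from met. CTNNB1 gave -0.0043 (-0.04 to 0.04, binomial adjusted p = 0.933) for hypo-Migs against normo-Migs, a sign that turned with total reads in place of TMM scaling, and CTNND1 gave 0.04 (-0.0018 to 0.09, binomial adjusted p = 0.159). Against PBS the catenins lay between 0.18 and 0.26 in size on the log2 scale, with CTNNA1 and CTNNB1 higher and CTNND1 lower with Migs. No catenin was called in any of the 6 pairs. Overlapping genes had few reads (LRRTM2 within CTNNA1 had 0 to 26, and AP001931.1 at CTNND1 had 0 to 8), and since the handling of strand is not given in the sources used here, reads on shared exons could not be assigned.

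The ratio of summed catenin FPKM to summed cadherin FPKM was 5.39 with PBS, 12.5 after normo-Migs, 12.5 after hypo-Migs and 12.6 after CD147KO-Migs. The summed catenin level was 106 FPKM with PBS and 111 to 115 with Migs, beside 19.6 and 8.90 to 9.16 for the cadherins. These ratios depend on the genes summed. With the 15 other cadherins and JUP, a relative of CTNNB1, added after the data were seen, the ratio was 8.79 with PBS and 10.8 to 11.5 with Migs, and CDH2 took 67.8% of the wider cadherin sum with PBS and 40.1% to 43.6% with Migs. The ratio of CTNNA1 to CTNNB1 was between 2.86 and 3.01 in all 4 libraries.

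**Figure D3:**
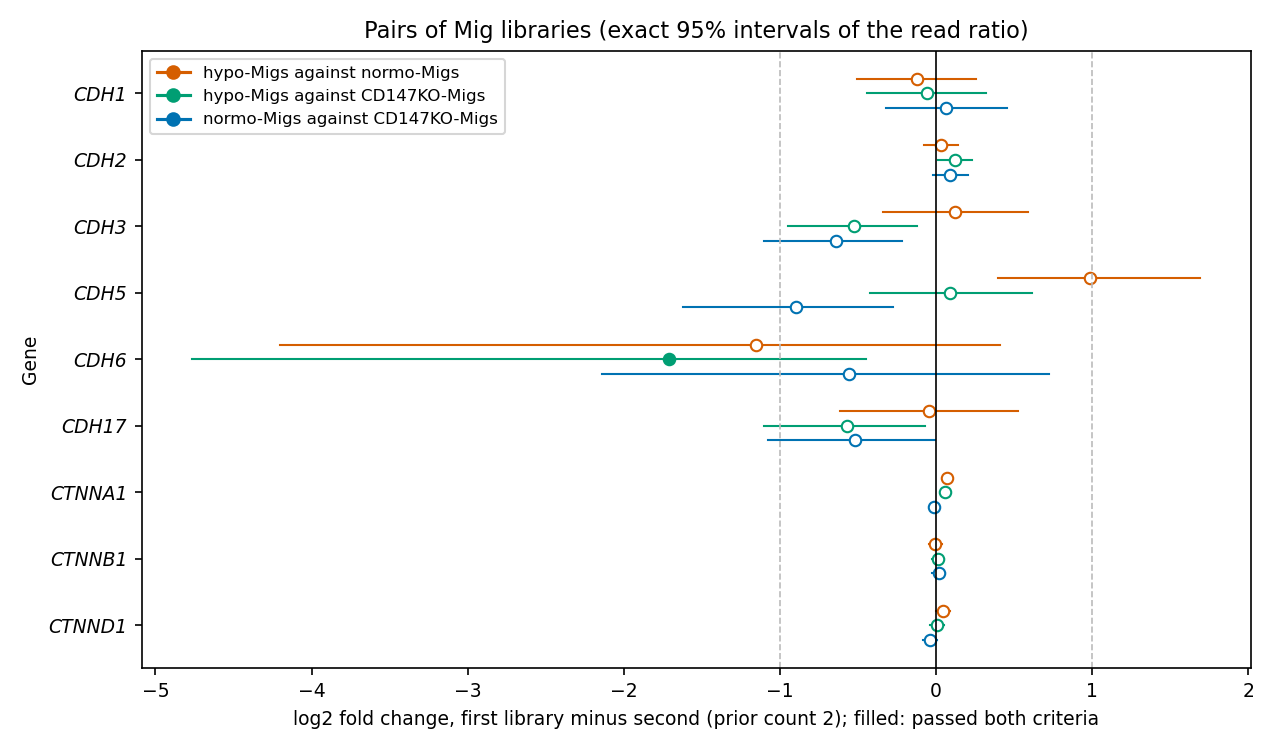
Log2 fold change of the 9 members tested between pairs of Mig libraries (prior count 2). Lines are exact 95% intervals of the read ratio, dashed lines mark the fold criterion, and filled points passed both criteria. CDH6 between hypo-Migs and CD147KO-Migs is the single filled point, CDH5 lies at 0.98 for hypo-Migs against normo-Migs, and the catenins lie within 0.07 of 0.

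**Figure D4:**
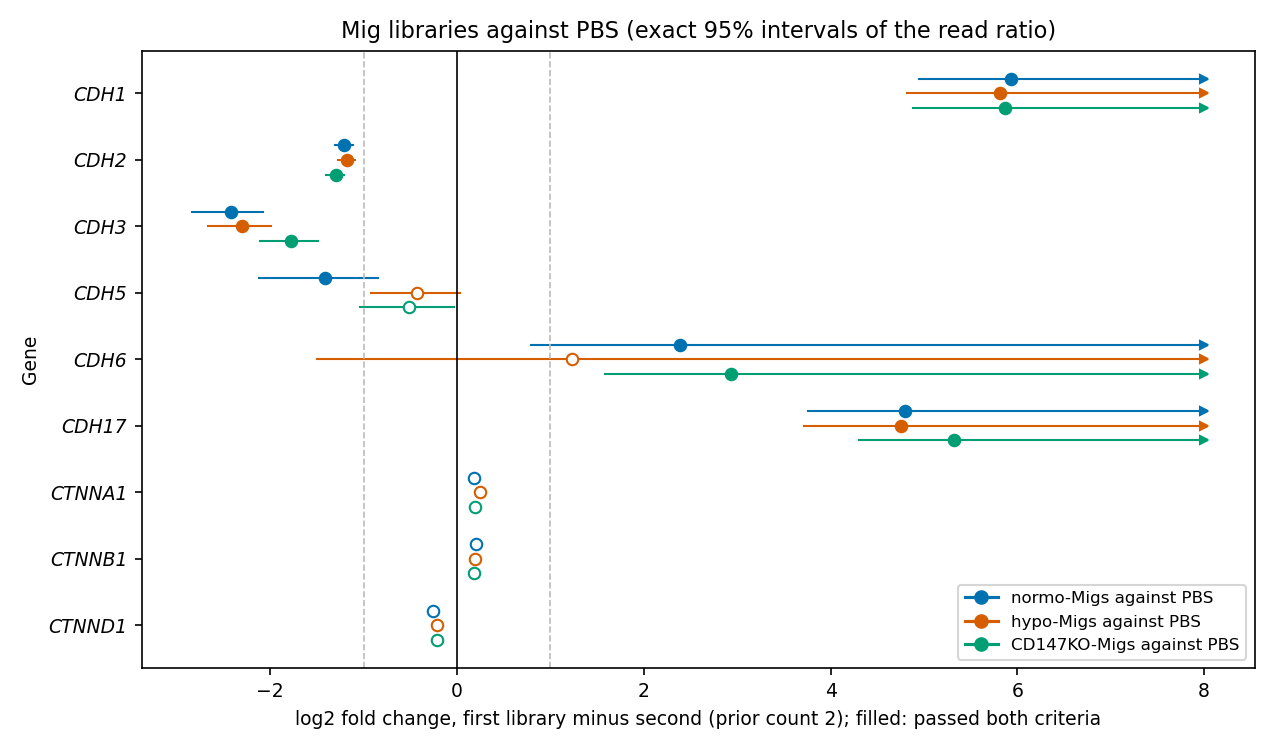
Log2 fold change of the same members for each Mig library against PBS, drawn in the same way. Arrows mark intervals without an upper end because PBS had 0 reads, and the points of CDH1, CDH6 and CDH17 depend on the prior count. CDH2 and CDH3 lie below -1 and CDH1 and CDH17 above 4 for all 3 Mig libraries.

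Partners and regulators of the members were taken from 7 gene lists. Of their 101 genes 78 were tested. For hypo-Migs against normo-Migs, 1 of these was called (1.28%, beside 4.9% of all genes), between hypo-Migs and CD147KO-Migs 2 (2.56%, beside 5.04%), and between normo-Migs and CD147KO-Migs 1 (1.28%, beside 4.91%). These were CDH4 (64 reads with hypo-Migs and 23 with normo-Migs), CDH26 (13 with CD147KO-Migs and 2 with each of the other Migs) and GRHL3 (11 with hypo-Migs and 1 with CD147KO-Migs). All had a mean under 50 reads and were singled out after their values were seen.

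Of the 15 other cadherins 6 were tested and 5 had 0 reads in all 4 libraries. CDH8 and CDH15 were called higher and CDH26 lower against PBS with all 3 kinds of Migs, each on 35 reads or fewer per library and named after its values were seen. CDH8 and CDH15 had 0 reads with PBS and entered the test through the Mig libraries alone, so the filter favored these calls. Over all genes tested, 16.5% to 17.4% were called higher against PBS and 10.7% to 10.9% lower. CDH24, a type II cadherin, was the most abundant of this list, at 5.18 FPKM with PBS and 7.22 to 8.32 FPKM with Migs. Per length, CDH24 was above CDH1 in the Mig libraries. It was above CDH2 with normo-Migs (8.32 and 7.49 FPKM) and CD147KO-Migs (7.49 and 7.02), and below CDH2 with hypo-Migs (7.22 and 7.64). It was not called.

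Of the 18 genes of the adherens junction plaque and nectins, 15 were tested, and 3 were called higher and 1 lower with normo-Migs against PBS (2 and 1 with hypo-Migs, 3 and 1 with CD147KO-Migs). Among all genes tested, 16.5%, 17.4% and 16.6% were called higher and 10.7%, 10.9% and 10.9% lower in that order. The median log2 fold change of the list was 0.14, 0.10 and 0.15 in that order, beside 0.03, 0.04 and 0.03 over all genes tested. LIMA1, which binds actin and α-catenin, had 1823 reads with PBS and 6290 to 7967 with Migs, a rise of up to 1.91 on the log2 scale. AFDN, or afadin, which joins nectins to actin, had 1697 and 3618 to 4330, a rise of 1.11 to 1.13. ARVCF, a relative of CTNND1, had 159 with PBS and 340 to 374 with Migs, and was called with normo-Migs and CD147KO-Migs. NECTIN4 (30 reads with PBS and 0 to 7 with Migs) was the one called lower, named after its values were seen. NECTIN4 entered the test through its reads with PBS alone, so the filter favored its call.

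Plakoglobin (JUP), the close relative of CTNNB1 that serves both adherens junctions and desmosomes, was more abundant per length than CTNNB1 in every library. Its level was 120 FPKM with PBS, 83.6 after normo-Migs, 83.8 after hypo-Migs and 88.8 after CD147KO-Migs. JUP had log2 fold changes of -0.51, -0.51 and -0.43 against PBS for normo-Migs, hypo-Migs and CD147KO-Migs, under the fold criterion. Vinculin (VCL), which α-catenin recruits under tension, had 7067 reads with PBS and 8687 to 10466 with Migs and was not called. The neural α-catenin CTNNA2 had 0 to 2 reads.

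Of the 12 desmosomal genes 7 were tested and 5 had 0 reads throughout. Against PBS, 2 were called higher and 2 lower with normo-Migs and with hypo-Migs, and 2 and 3 with CD147KO-Migs. Of all genes tested, 16.5%, 17.4% and 16.6% were called higher and 10.7%, 10.9% and 10.9% lower with normo-Migs, hypo-Migs and CD147KO-Migs. The median of the list was 0.30, 0.32 and 0.27 in that order. Both desmocollins detected, which are desmosomal cadherins, were higher. DSC2 had 30 reads with PBS and 582 to 803 with Migs, a rise of 4.21 to 4.44 on the log2 scale, and DSC3 had 0 with PBS and 296 to 357 with Migs, at least 84.8-fold higher. DSC3 entered the test through its reads in the Mig libraries alone, so the filter favored its call. The plakophilins PKP2 and PKP3 were lower. PKP2 had 2376 reads with PBS and 378 to 502 with Migs, and PKP3 had 9151 and 3035 to 3489. DSG2 had 11360 and 5761 to 7022, and was called with CD147KO-Migs alone, just past the fold criterion.

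Of 11 genes listed as repressors of CDH1, 9 were tested, and repression itself was not measured. Against PBS, 4 were called higher and 0 lower with normo-Migs and with hypo-Migs, and 5 and 0 with CD147KO-Migs. Of all genes tested, 16.5%, 17.4% and 16.6% were called higher with normo-Migs, hypo-Migs and CD147KO-Migs. The median of the list was 0.98, 0.97 and 1.10 in that order. SNAI1, a zinc finger repressor of CDH1, had 81 reads with PBS, 382 after normo-Migs, 513 after hypo-Migs and 547 after CD147KO-Migs. TWIST1, a basic helix-loop-helix factor, had 61, 463, 510 and 608 reads in that order. FOXC2 had 29 with PBS and 604 to 787 with Migs, and TCF4 had 19 and 395 to 455. TCF4 is the gene of that symbol here and not TCF7L2, which is in the list of β-catenin partners. These 4 genes were higher in the same libraries in which CDH1 had reads, a contrast that rests on the library labelled PBS. A relation between these genes and CDH1 was not tested. SNAI1 was lower with hypo-Migs than with CD147KO-Migs (log2 fold change -0.29, binomial adjusted p = 0.00861), and so was TWIST1 (-0.45, binomial adjusted p = 6.74e-06), both under the fold criterion.

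TWIST2, a relative of TWIST1, had 321 reads with PBS and 627 to 731 with Migs, at log2 fold changes of 0.97 to 1.10. It was called with CD147KO-Migs alone, lay outside the naming rule and was named after its values were seen. SNAI2 had 314 reads with PBS and 277 to 367 with Migs. ZEB1 had 472 and 765 to 1022, at log2 fold changes of 0.67 to 0.89, and ZEB2 had 661 and 383 to 633, at -0.81 to -0.28. None of these passed both criteria against PBS. ZEB2 was higher with hypo-Migs than with CD147KO-Migs, at a log2 fold change of 0.53 (binomial adjusted p = 5.28e-07), under the fold criterion.

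Of the 12 epithelial regulators 9 were tested, and 2 were called higher and 2 lower against PBS with each kind of Migs. The list medians were 0.48, 0.82 and 0.35 for normo-Migs, hypo-Migs and CD147KO-Migs. Over all genes tested, 16.5% to 17.4% were called higher and 10.7% to 10.9% lower. ESRP2, a splicing factor of epithelial cells, fell by 1.18 to 1.38 on the log2 scale, from 4253 reads with PBS to 1767 to 1910 with Migs. OVOL2 had 25 reads with PBS and 118 to 184 with Migs, a rise of 2.13 to 2.57. FOXA2 (0 with PBS and 41 to 60 with Migs) and GRHL3 (33 and 1 to 11) were also called and were named after their values were seen. FOXA2 entered the test through its reads in the Mig libraries alone, so the filter favored its call. GRHL2, an activator of CDH1 in epithelia, had 0 to 2 reads and ESRP1 6 to 14 in all libraries.

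Of the 14 genes for cadherin processing and turnover 13 were tested, with 3 called higher with normo-Migs against PBS, 2 with hypo-Migs and 2 with CD147KO-Migs, and 0 lower. Among all genes tested, 16.5%, 17.4% and 16.6% were called higher in that order. The median of the list was -0.24, -0.06 and -0.15. FURIN, a proprotein convertase that cleaves the prodomain of classical cadherins, had 6576 reads with PBS, 18332 after normo-Migs, 21950 after hypo-Migs and 20534 after CD147KO-Migs, a rise of up to 1.62 on the log2 scale. MMP7, a protease that can shed E-cadherin, had 5 reads with PBS and 95 to 130 with Migs. MMP7 entered the test through its reads in the Mig libraries alone, so the filter favored its call. MMP14, called with normo-Migs alone (37 reads, and 16 with PBS), was named after its values were seen. ADAM10, the main sheddase of CDH1 and CDH2, had 5881 reads with PBS and 4750 to 5756 with Migs and was not called.

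Of the 19 genes of the β-catenin destruction complex and its nuclear partners, all were tested, and 4, 5 and 5 were called higher against PBS with normo-Migs, hypo-Migs and CD147KO-Migs, with 0 lower. The shares of all genes called higher were 16.5%, 17.4% and 16.6%. The median of the list was 0.30, 0.39 and 0.43. The TCF/LEF factors that bind CTNNB1 made up most of them. TCF7 had 6 reads with PBS and 611 to 771 with Migs, LEF1 had 0 and 93 to 112, and TCF7L1 had 30 and 179 to 262. AXIN2, a scaffold of the destruction complex and a Wnt target, had 4 reads with PBS and 74 to 102 with Migs. TCF7, LEF1 and AXIN2 entered the test through their reads in the Mig libraries alone, so the filter favored their calls. PYGO1 (272 and 492 to 662), called with hypo-Migs and CD147KO-Migs, lay outside the naming rule and was named after its values were seen. The inhibitor CTNNBIP1 had log2 fold changes of 0.30 to 0.42 and was not called.

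**Figure D5:**
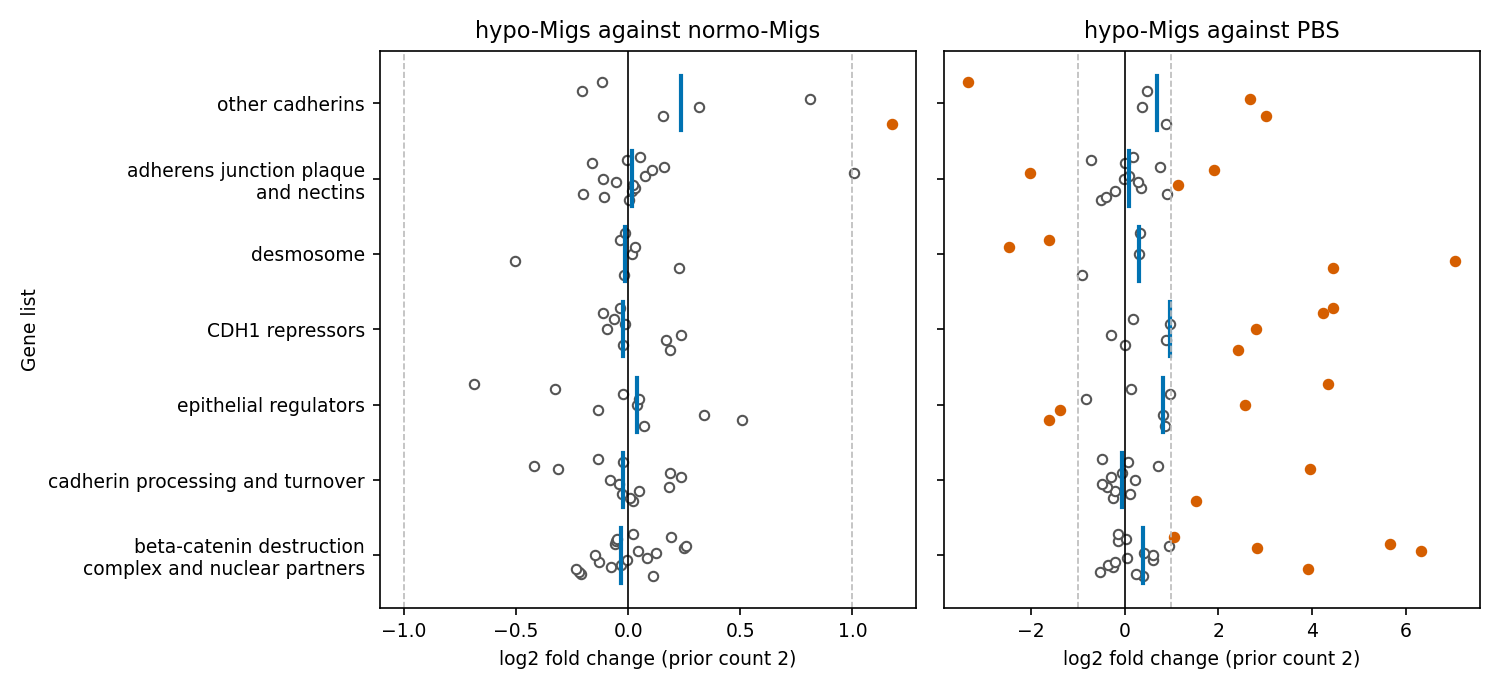
Log2 fold change of each tested gene of the 7 lists for hypo-Migs against normo-Migs (left) and hypo-Migs against PBS (right), with different horizontal scales. Filled points passed both criteria, dashed lines mark the fold criterion and vertical bars are list medians. One gene of the lists is called on the left, CDH4, and the genes of the CDH1 repressor list called on the right all lie above 2.

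Genes with the pattern most like each well-covered cadherin were sought among 12186 protein-coding genes averaging 50 reads or more. Likeness was the root mean square difference in centred log2 CPM over the 4 libraries, which mostly follows the contrast of PBS with the rest. Nearest to CDH1 were IGFBP2 (0.0426), PRKAR2B (0.0462) and COL6A2 (0.0494), and IGFBP2 had 0 reads with PBS and 115 to 126 with Migs. Nearest to CDH2 were STX5 (0.0238), BACH1 (0.0245) and NRG4 (0.0249). Nearest to CDH3 were PLXNB3 (0.0646), GPNMB (0.0985) and CYP1A1 (0.115). Nearest to CDH5 were TBX19 (0.0558), ZNF112 (0.0632) and DOP1B (0.0787), and TBX19 had 74 reads with PBS, 27 after normo-Migs, 64 after hypo-Migs and 48 after CD147KO-Migs.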

How the data were processed

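The 4 RNA-seq libraries (PBS and 3 kinds of Migs) hold 1 culture each. Per the labels, the authors used CASAVA 1.8, fastp, HISAT2 2.0.5, featureCounts 1.5.0-p3 and hg38. They deposited raw counts of reads per gene without normalization, and FPKM, scaled by gene length and library size. Coordinates of all 58735 genes were found in GENCODE 29. The labels name a SMARTER mRNA kit, and the supplementary methods describe poly-T beads and random hexamers.

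The test covered 19895 genes, those reaching 10 reads in any library. With R 4.3.3 and edgeR 4.0.16, libraries were scaled by TMM (factors 0.986 to 1.02) and pairs compared by the two-sided exact binomial test with Benjamini-Hochberg adjustment. Count models such as quasi-likelihood have no residual degrees of freedom here. The procedure was run on simulated counts with known changes and counting error alone. That run cannot show how the test behaves with variation between cultures. Shares have 95% Wilson or exact intervals, and a count of 0 a floor of 3 reads per library. In all, 15 symbols of the count table differ from those of the FPKM table, so genes were matched by identifier. Figures used Python 3.11.15, pandas 2.3.3 and matplotlib 3.10.9.

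The members, the 7 lists and the naming rule were chosen with earlier results of these data known. Named were all members, listed genes called with a mean of at least 50 reads in the pair (up to 4 per direction against PBS), a fixed set of partners (JUP, CTNNA2, VCL, AFDN, SNAI1, SNAI2, ZEB1, ZEB2, TWIST1, GRHL2, ESRP1, CTNNBIP1, FURIN and ADAM10), and the 3 genes most like each cadherin. Genes outside the rule are said to be so. Alternatives, 13 planned and 2 added after seeing the data, concerned scaling, filters, prior count, FPKM, assumed coefficients of variation of 0.1 and 0.4, DESeq2 1.42.0, the fold alone, protein-coding genes, halved reads and scaling over the Mig libraries. Protein sequences, Western blots, imaging and animal experiments were not analysed here.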

Additional observations from a re-analysis of the deposited data

How the results depend on the processing

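Of the alternatives for the number of members called, 65 results stayed within 1.5 times the main count and 22 did not. Between hypo-Migs and normo-Migs 1 member was called instead of 0 with a prior count of 0.25 (CDH5) and with the fold alone (CDH6). Between hypo-Migs and CD147KO-Migs the 1 member, CDH6, was lost (0 called) with no filter on low reads, with at least 10 reads in every library, with either pseudocount on FPKM, with a coefficient of variation of 0.1 or 0.4, with DESeq2 and with reads halved. Against PBS the 6, 4 and 5 members called with normo-Migs, hypo-Migs and CD147KO-Migs became 3, 2 and 2 with at least 10 reads in every library, which removes CDH1, CDH6 and CDH17 from the test. They became 2, 2 and 1 with log2(FPKM + 1), a scale that understates the change of low genes, 2, 2 and 2 with a coefficient of variation of 0.4, and 0, 0 and 0 with DESeq2. The DESeq2 dispersion takes in the differences between the conditions, so its counts cannot decide whether the calls hold. Total reads in place of TMM turned 3 near-zero log2 fold changes: CTNNB1 to 0.011 for hypo-Migs against normo-Migs and to -0.00262 for normo-Migs against CD147KO-Migs, and CTNND1 to -0.00119 for hypo-Migs against CD147KO-Migs. No other direction changed among the members' log2 fold changes recomputed, of which 715 also kept their side of the criteria, 44 no longer passed and 3 newly passed. Removing the library labelled PBS from the scaling changed no call among the Mig libraries. No paired analysis was possible because each condition had 1 library, and no replicate could be left out. For members with few reads (CDH5, CDH6, CDH17 and CDH3 with Migs), depth limits what the Mig pairs can show.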

Other observations

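In every library, genes with exactly 2 reads outnumbered those with exactly 1 (2004 to 2095 against 1418 to 1500), and genes with 4 reads outnumbered those with 3 (1020 to 1091 against 719 to 763). If both ends of a fragment were counted, the counting intervals above would be too narrow, and reads were therefore also halved. With reads halved, CDH6 lost its calls between hypo-Migs and CD147KO-Migs and between normo-Migs and PBS, and the members' other calls were kept.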
